A study of Mus musculus with 60 samples.

Results

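The enzymes described here break down amino acids, dispose of their nitrogen as urea, or move methyl and other single-carbon groups. They were chosen as a list of 39 gene symbols, and each of the 39 matched 1 of the 54232 gene IDs in the deposited count table. RNA came from mouse liver and from subcutaneous and visceral fat, in 12 groups of 5 libraries that cross tissue with diet and with NaKtide. The diets were fed for 12 weeks. The control diet was normal chow with 27.0% protein, 11% fat and 62% carbohydrate, and the Western diet (WD) held 15.2% protein, 42% fat and 42.7% carbohydrate. NaKtide is a peptide that blocks signalling through the Na,K-ATPase and Src, and it was expressed from a transgene that was switched on by 300 mg/kg doxycycline in the food. NaKtide and doxycycline therefore cannot be told apart in these groups. The labels give no doxycycline for the other groups and do not say whether those mice carried the transgene. The study's title places the pathway in adipocytes, while the sources used here do not give the promoter that drives the transgene or the sex, strain and age of the mice. Libraries are named here by group and replicate number. Nothing says that equal numbers share a mouse, so p-values measure only the spread between these samples.

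In the liver, amino acids that are not used for protein lose their nitrogen by transamination or deamination, and their carbon skeletons enter glucose synthesis or oxidation. The freed ammonia enters the urea cycle in periportal hepatocytes, and glutamine synthetase in the hepatocytes around the central vein takes up what escapes. Many of these enzymes are known to rise in liver with dietary protein, glucagon and glucocorticoids. Methionine is activated to S-adenosylmethionine, and the homocysteine that remains after methyl transfer is either methylated again or drained through transsulfuration to cysteine. Branched-chain amino acids are largely transaminated outside the liver, and adipose tissue is one of the tissues that oxidises them.

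Libraries held between 3.178 and 9.784 M counts, and liver libraries between 3.178 and 7.161 M. Albumin was at 14600 CPM (counts per M counts of the library) or more in each control liver, and the adipocyte hormone gene Adipoq was at 1520 CPM or more in each subcutaneous library of the Western diet without NaKtide. Some libraries stood apart. Control livers 2 and 4 held 373 and 766 CPM summed over 15 skeletal muscle genes, against 12.9 to 28.7 CPM in the other control livers. By their whole profile, 3 of 20 livers were nearest to a library of another group. Western liver 1 was nearest to a Western liver with NaKtide, and Western liver with NaKtide 1 was nearest to a Western liver without it. The same held for 9 of 20 subcutaneous and 7 of 20 visceral libraries, among them visceral control library 4 and visceral Western library 5 with NaKtide, which were each other's nearest. Visceral control libraries 3 to 5 carried 13300 to 24500 CPM of 12 epididymis and testis genes, and control library 5 only 179 CPM summed over 4 adipocyte genes. Western libraries 5 and 2 with NaKtide carried 28800 and 2490 CPM of the same 12 genes, and control library 1 with NaKtide 5860 CPM. Visceral values are therefore given with and without these libraries. In such bulk samples, fewer cells of a type and less RNA per cell cannot be told apart.

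The members were mainly liver genes. Levels between genes are compared as deposited FPKM, fragments scaled to transcript length and library depth. In livers of the control diet without NaKtide, Ass1 (argininosuccinate synthase of the urea cycle) was highest at 1890 ± 327 FPKM (SD, n = 5), and Hpd (4-hydroxyphenylpyruvate dioxygenase of tyrosine breakdown) followed at 1750 ± 215 FPKM. These 2 levels differed by less than their SDs. Gnmt, which uses up S-adenosylmethionine by methylating glycine, followed at 1180 ± 658 FPKM, and its wide spread overlapped that of Arg1 (arginase, 792 ± 107 FPKM) and Bhmt (betaine-homocysteine methyltransferase, 691 ± 152 FPKM). The low end held the genes that make rather than break down amino acids. Asns (asparagine synthetase) was at 5.26 ± 3.66 FPKM and Psph (phosphoserine phosphatase, the last step of serine synthesis) at 1.67 ± 0.458 FPKM. Phgdh and Psat1, which catalyse the earlier steps of serine synthesis, were at 0.117 ± 0.171 and 0.0799 ± 0.0188 FPKM and did not pass the filter on low counts in liver.

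Set against fat, 25 of the 39 members had every one of 20 liver libraries above every one of 40 fat libraries. Otc, the ornithine transcarbamylase of the urea cycle, ranged from 105 to 240 FPKM in liver and reached at most 1.28 FPKM in fat. Tdo2, which opens the tryptophan ring, ranged from 36.6 to 227 FPKM in liver and from 0 to 1.28 FPKM in fat. The reverse held for 3 members. Phgdh lay between 35.9 and 223 FPKM in fat and did not exceed 0.714 FPKM in liver. Psat1 lay between 4.1 and 39.3 FPKM in fat and at most 0.697 FPKM in liver, and Bckdk, the kinase that switches off branched-chain ketoacid oxidation, lay between 9.37 and 72.4 FPKM in fat against 4.16 to 7.45 FPKM in liver. The remaining 11 members overlapped between liver and fat. Among them Glul (glutamine synthetase) was the highest member in both fats, at 266 ± 74.1 FPKM in subcutaneous and 310 ± 69.6 FPKM in visceral control libraries against 274 ± 40.6 FPKM in control liver. Only the authors' FPKM scaling places the tissues side by side, so these levels are a description without a test.

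**Figure D1:**
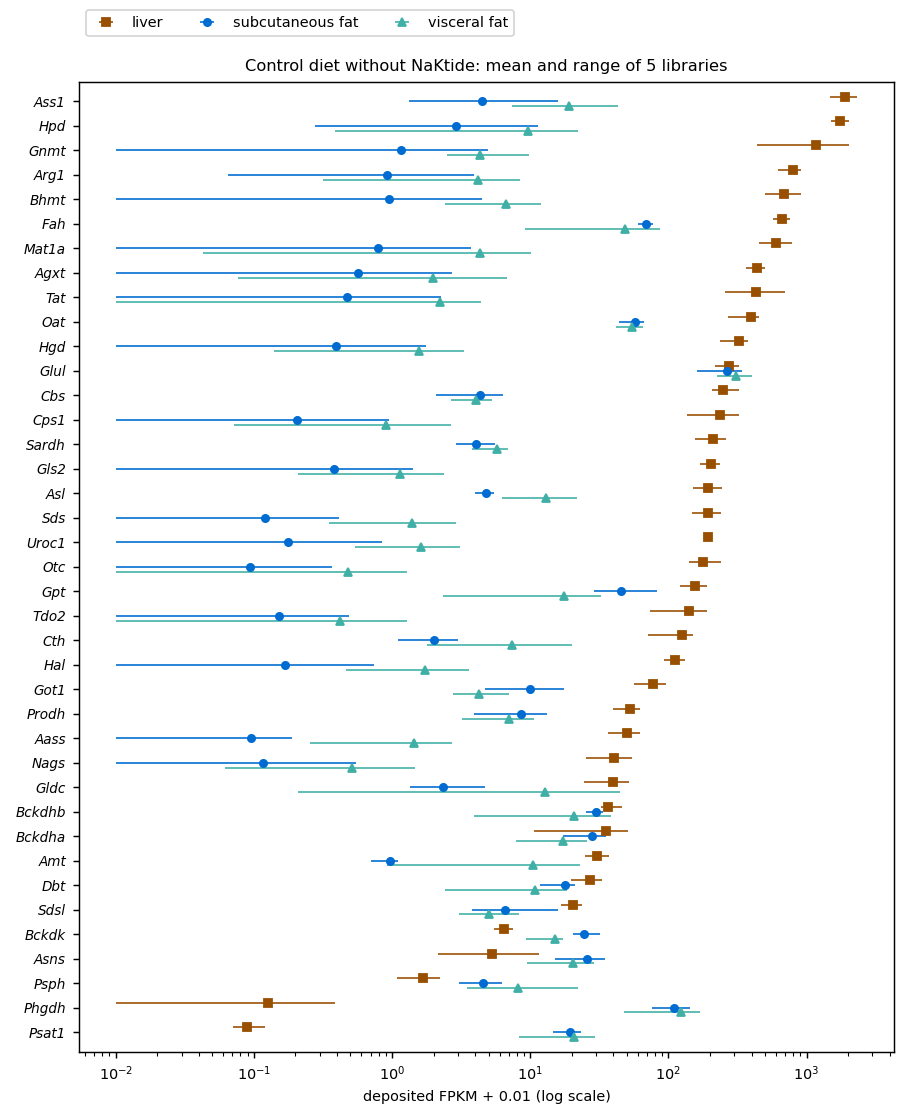
Deposited FPKM plus 0.01 on a log axis for the 39 members in libraries of the control diet without NaKtide. Markers are means and bars run from the lowest to the highest of 5 libraries in liver (squares), subcutaneous fat (circles) and visceral fat (triangles). Members are ordered by their level in liver, from Ass1 at 1890 FPKM to Psat1 at 0.0799 FPKM. Phgdh, Psat1 and Bckdk lie higher in both fats than in liver.

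The first question is which of these enzymes changed in liver when the diet held less protein and more fat. Western livers without NaKtide had lower transcripts of 11 members and higher transcripts of 2 than control livers, of 37 members tested (edgeR quasi-likelihood test, adjusted p below 0.05 over 12991 genes). Over all genes tested, 3.7% were lower and 4.73% higher. The median log2 change of the tested members was -0.43, and that of all genes was 0.03. The 5 libraries of the Western diet lay wholly below the 5 controls for 9 members, against 3.24% of all genes, and wholly above them for 1 member, against 3.99% of all genes. The members that fell are spread over transamination and deamination, histidine, tyrosine and branched-chain breakdown, glutaminase and transsulfuration. The changed members do not include any of the 5 enzymes of the urea cycle itself. Levels below are CPM after TMM scaling, and each is a sample's own level.

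Agxt, the alanine-glyoxylate aminotransferase that keeps glyoxylate from becoming oxalate, lies on chromosome 1 at 93135240 to 93145421 (GRCm38, GENCODE M21). Its levels were 521, 418, 468, 515 and 561 CPM in control livers and 112, 90.3, 81.1, 114 and 138 CPM in Western livers. The groups were far apart, with a log2 change of -2.21 (SE 0.23, adjusted p = 3.5e-06). Gpt, the alanine aminotransferase that yields pyruvate, lies on chromosome 15 at 76695716 to 76699686. Its levels were 328, 330, 276, 240 and 374 CPM in control livers and 145, 162, 168, 191 and 164 CPM in Western livers. Each Western liver was thus below each control, with a log2 change of -0.90 (SE 0.16, adjusted p = 0.0014). Sds and Sdsl, which deaminate serine and threonine, were also lower. Sdsl averaged 12.8 ± 1.76 against 20.4 ± 2.54 CPM, without overlap (log2 change -0.67, adjusted p = 0.017). Sds averaged 135 ± 58.0 against 220 ± 39.1 CPM with overlapping groups, since Western liver 4 reached 226 CPM (log2 change -0.71, adjusted p = 0.048), and its call was kept in 6 of 19 other analyses. Got1, the cytosolic aspartate aminotransferase, was the member of this group that did not pass, at 130 ± 54.6 against 131 ± 25.1 CPM. The Sds locus overlaps genes on the opposite strand, as do Nags, Glul, Gls2, Bckdha, Psph, Sardh and Bhmt, and the sources used here do not state whether counting used the strand.

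Hal, the histidine ammonia-lyase that starts histidine breakdown, lies on chromosome 10 at 93488768 to 93519304. It had 341, 349, 464, 490 and 436 CPM in control livers and 83, 134, 157, 255 and 170 CPM in Western livers. The highest Western liver was below the lowest control, and the log2 change was -1.38 (SE 0.25, adjusted p = 0.0013). Uroc1, the urocanate hydratase that follows it, averaged 332 ± 30.9 against 448 ± 16.0 CPM, also without overlap (log2 change -0.43, adjusted p = 0.035), but its call was kept in 8 of 19 other analyses. Of the 5 members of aromatic amino acid breakdown only Hpd passed. Hpd (chromosome 5, 123171807 to 123182727) had 2880, 2310, 2170, 2400 and 2700 CPM in control livers and 1070, 1540, 1510, 1300 and 1680 CPM in Western livers. The groups did not overlap, and the log2 change was -0.81 (SE 0.17, adjusted p = 0.0046). The tyrosine aminotransferase Tat, which acts just before Hpd, was at 684 ± 616 against 698 ± 282 CPM, with Western liver 4 alone at 1770 CPM.

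Gls2, the liver glutaminase that releases ammonia from glutamine (chromosome 10, 128194457 to 128210004), had 543, 458, 395, 479 and 511 CPM in control livers. In Western livers it had 181, 216, 233, 293 and 295 CPM. It was lower in every Western liver, with a log2 change of -0.97 (SE 0.18, adjusted p = 0.0016). Glul, which makes glutamine from glutamate and ammonia, moved the other way. It had 594, 652, 732, 591 and 477 CPM in control livers and 759, 985, 1150, 868 and 891 CPM in Western livers. The groups did not overlap, with a log2 change of 0.61 (SE 0.19, adjusted p = 0.047), but the call was kept in 7 of 19 other analyses and was lost without control livers 2 and 4. None of the urea cycle enzymes passed the test. Ass1 averaged 2120 ± 352 against 3050 ± 510 CPM (log2 change -0.52, adjusted p = 0.073). Asl, the argininosuccinate lyase, changed by -0.67 (adjusted p = 0.053), and Nags, which makes the activator of the first urea cycle enzyme, by -0.60 (adjusted p = 0.063). Arg1 was at 1160 ± 263 against 1180 ± 156 CPM, a log2 difference of -0.02 (SE 0.17).

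In transsulfuration, Cth makes cysteine from cystathionine (chromosome 3, 157894248 to 157925077). It had 262, 285, 134, 260 and 234 CPM in control livers and 45.6, 88, 97.4, 136 and 91.2 CPM in Western livers. The groups met only at control liver 3 and Western liver 4, and the log2 change was -1.36 (SE 0.27, adjusted p = 0.0031). Cbs, which makes the cystathionine, averaged 393 ± 84.0 against 560 ± 99.3 CPM and did not pass (adjusted p = 0.08). Sardh, the mitochondrial sarcosine dehydrogenase that feeds single carbons into folate (chromosome 2, 27188393 to 27248337), had 946, 834, 572, 670 and 768 CPM in control livers. In Western livers it had 407, 464, 435, 450 and 516 CPM, all below the controls (log2 change -0.74, SE 0.16, adjusted p = 0.0063). Among branched-chain members, Dbt, the core subunit of the ketoacid dehydrogenase (chromosome 3, 116513070 to 116549981), had 57, 54.9, 73.4, 73.4 and 44 CPM in control livers. It had 36.4, 38.6, 36.4, 33.1 and 36.6 CPM in Western livers, a narrow range below all controls (log2 change -0.74, SE 0.17, adjusted p = 0.0076). Psph rose from 4.84 ± 1.30 to 8.63 ± 1.58 CPM with overlapping groups (log2 change 0.82, adjusted p = 0.019), kept in 12 of 19 other analyses. No member of ornithine, proline and lysine breakdown passed.

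**Figure D2:**
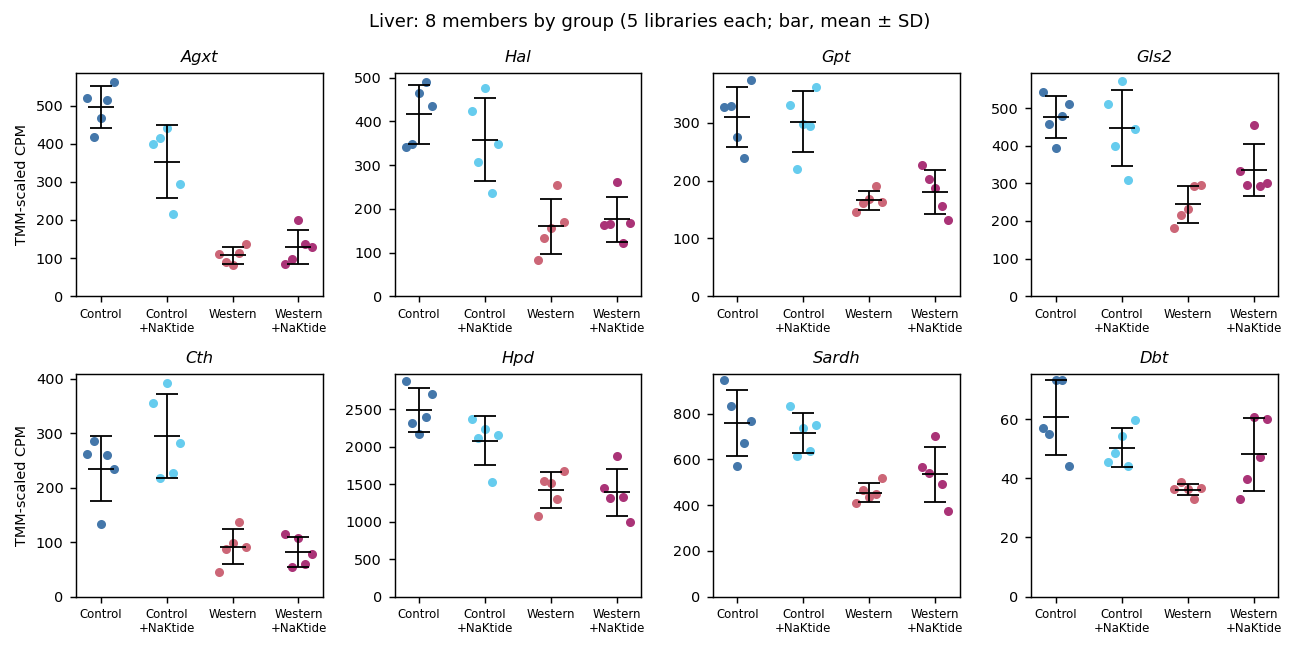
TMM-scaled CPM of 8 members in the 20 livers, 1 panel a gene and 1 point a library, in the 4 groups of diet and NaKtide. The horizontal mark is the mean and the bar 1 SD of 5 libraries. Agxt lies between 418 and 561 CPM in control livers and between 81.1 and 138 CPM in Western livers without NaKtide.

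The calls of Agxt, Gpt, Sdsl, Hal, Hpd, Gls2, Cth, Sardh and Dbt were each made in all 19 other analyses of this contrast. Without control livers 2 and 4, those 9 members were the only members called. Calls over all genes then went from 1096 to 642, with 375 higher and 267 lower. With the share of counts on mitochondrial genes as a covariate, 9 members were lower and 2 higher, and no share of all genes is given for that setting. Other liver values moved with the diet too. The summed level of 8 hepatocyte genes ran from 44400 to 52400 CPM in control livers and from 34700 to 41700 CPM in Western livers, so the groups did not overlap. None of the 8 was at 0 in any liver of these groups. The 6 stellate and fibroblast genes summed to 51.1 to 105 CPM in control and 92.6 to 314 CPM in Western livers. The 5 cholangiocyte genes summed to 12.1 to 26.2 CPM in control and 27.6 to 104 CPM in Western livers, without overlap. A list of 5 periportal genes, which includes Hal and Sds, had medians of 2690 and 1280 CPM, and a list of 8 pericentral genes, which includes Glul and Oat, had medians of 6160 and 4840 CPM. The part of these in the members' changes was not tested.

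Other genes of the same pathways, were a fixed list of 113 that holds none of the members. Of 107 tested in liver, 18 were lower and 8 higher on the Western diet without NaKtide, beside 3.7% and 4.73% of all genes. Among further steps of branched-chain breakdown, 6 of 16 tested were lower and none higher. They include Ivd, the isovaleryl-CoA dehydrogenase of leucine breakdown (log2 change -1.20, SE 0.12, adjusted p = 3.5e-06), and Ppm1k, the phosphatase that switches on branched-chain ketoacid oxidation (log2 change -1.33, SE 0.20, adjusted p = 0.00017). Of 36 tested in further catabolism and urea, 7 were lower, among them Aldh4a1 of proline breakdown (log2 change -0.64, adjusted p = 0.0036) and Afmid of tryptophan breakdown (log2 change -1.32, adjusted p = 0.0075). The gene of that group that rose makes proline and ornithine precursors. It is Aldh18a1, with a log2 change of 2.30 (SE 0.48, adjusted p = 0.0043). Of the folate and methyl group genes, Mthfd2 of mitochondrial folate (log2 change 1.86, adjusted p = 0.0096) and Mtr, methionine synthase (1.29, adjusted p = 0.0095), were higher. In the same group Ahcy, which cleaves S-adenosylhomocysteine (-1.07, adjusted p = 0.00017), and Nnmt, which methylates nicotinamide (-1.49, adjusted p = 0.033), were lower. Of 12 transporters, 3 rose, namely Slc1a4, Slc7a11 and Slc1a5 (log2 changes 1.27, 1.11 and 1.53), and 2 fell. Among 12 genes of ATF4 and amino acid stress, Atf5 (0.51, adjusted p = 0.014) and Nupr1 (1.86, adjusted p = 0.017) rose and none fell. Of 12 regulators of amino acid breakdown, only the transcription factor gene Creb3l3 changed, with a log2 change of -0.81 (adjusted p = 0.0029).

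The promoters of the members were searched because genes for amino acid synthesis and some aminotransferases are known targets of ATF4. RefSeq upstream windows of 250 bases (GRCm38.p6) were found for 29 of the 39 members. The C/EBP-ATF response element core TGATGNAA, read on both strands, was in 2 of these 29 genes and in 3.45% of 32817 promoters. The cyclic AMP response element TGACGTCA was in none of the 29 and in 1.55% of all, and the C/EBP site TTGCGCAA was in none and in 0.165% of all. The 2 with a match, Asns and Got1, are printed with Agxt, which had the largest log2 change of the called members between Western and control livers without NaKtide and holds no match. Each is written 5′ to 3′ in the direction of the gene and ends at the base before the RefSeq start site, and capitals mark the motif. The windows are chr6:7693210-7693459 on the minus strand for Asns, chr19:43524606-43524855 on the minus strand for Got1 and chr1:93134990-93135239 on the plus strand for Agxt. In GENCODE M21 the Asns gene reaches 7693254, so the end of its window, with the motif, lies inside the gene by that annotation. A match is a description of these letters and not evidence of binding.
Asns: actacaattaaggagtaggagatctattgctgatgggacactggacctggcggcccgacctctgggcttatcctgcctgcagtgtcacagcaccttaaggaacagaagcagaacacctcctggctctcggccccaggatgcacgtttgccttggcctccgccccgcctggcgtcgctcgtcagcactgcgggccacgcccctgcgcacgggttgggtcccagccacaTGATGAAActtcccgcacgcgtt
Got1: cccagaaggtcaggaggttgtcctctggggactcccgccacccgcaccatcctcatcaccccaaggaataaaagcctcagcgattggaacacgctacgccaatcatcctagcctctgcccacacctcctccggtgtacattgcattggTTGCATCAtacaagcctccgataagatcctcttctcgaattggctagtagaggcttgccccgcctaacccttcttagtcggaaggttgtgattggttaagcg
Agxt: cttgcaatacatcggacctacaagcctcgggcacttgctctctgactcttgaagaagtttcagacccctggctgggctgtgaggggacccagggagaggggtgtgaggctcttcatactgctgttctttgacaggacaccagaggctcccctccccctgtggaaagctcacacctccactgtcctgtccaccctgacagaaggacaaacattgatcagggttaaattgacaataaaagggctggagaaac

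In liver, Asns was sparse and did not pass in any contrast. It had 5.68, 21.1, 9.77, 3.89 and 7.8 CPM in control livers and 1.02, 1.15, 2.33, 8.94 and 4.84 CPM in Western livers, which overlap (log2 change -1.41, SE 0.64).

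The diet was also compared between the 2 groups that expressed NaKtide. These livers share no library with the contrast above. Western livers with NaKtide had 19 members lower and 1 higher than control livers with NaKtide, of 37 tested. Across all genes 11.5% were lower and 12.9% higher, so many more genes were called here than without NaKtide. The median log2 change was -0.57 for the members and -0.02 for all genes. For 8 members the Western libraries lay wholly below the controls, against 6.18% of all genes. Both diet contrasts called Agxt, Cth, Gpt, Hal and Hpd lower, which are 45.5% of those lower without NaKtide and 26.3% of those lower under it. Of the 37 tested members, 30 had a negative change in both. Changes above 0 were found for 5 members without and 2 under NaKtide, against 6883 and 6333 of the 12991 genes. The shares of all genes that were lower or negative in both contrasts were not computed, so this overlap is a description.

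Under NaKtide the members called lower included 4 of the 8 urea cycle and ammonia members. The median log2 change of these 8 was -0.5, against -0.46 without NaKtide, and the interaction of diet and NaKtide was called for none of them. More calls here are therefore not a larger fall of this group. Cps1, the carbamoyl-phosphate synthetase that starts the cycle (chromosome 1, 67123026 to 67231259), had 931, 730, 1030, 1050 and 1060 CPM in control livers and 480, 217, 352, 246 and 275 CPM in Western livers. The groups were clearly apart (log2 change -1.61, SE 0.35, adjusted p = 0.0035). Ass1, Asl and Nags were lower by 0.57 to 0.63 on the log2 scale, with adjusted p of 0.026, 0.036 and 0.041, and with overlapping groups. Their calls were kept in 10, 9 and 9 of 18 other analyses. Arg1 (log2 change -0.07) and Otc (-0.28) did not pass. Tdo2 had 540, 300, 563, 594 and 582 CPM in control livers and 342, 112, 135, 92.5 and 179 CPM in Western livers. The groups met because control liver 2 was low and Western liver 1 high (log2 change -1.58, SE 0.36, adjusted p = 0.005). Tat (-1.42), Hgd, the homogentisate dioxygenase (-0.78), and Hpd (-0.58) also fell, so 4 of 5 aromatic members were lower.

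Of the called members, Gnmt and Cth had the largest falls. Gnmt (chromosome 17, 46725664 to 46729168) had 1130, 532, 1040, 1160 and 1310 CPM in control livers with NaKtide and 394, 145, 243, 152 and 115 CPM in Western livers with NaKtide. No library overlapped, and the log2 change was -2.30 (SE 0.47, adjusted p = 0.0027). Cth had 356, 217, 392, 227 and 281 CPM against 114, 53.8, 108, 59 and 77.8 CPM (log2 change -1.83, SE 0.27, adjusted p = 0.00019). Every Western liver was below every control for Cth and also for Cbs. Cbs (chromosome 17, 31608894 to 31637238) had 674, 616, 636, 430 and 501 CPM against 342, 244, 289, 247 and 204 CPM (log2 change -1.11, SE 0.18, adjusted p = 0.00039). Gldc, a subunit of the glycine cleavage system, fell by 0.84 on the log2 scale (adjusted p = 0.015). Mat1a, which makes S-adenosylmethionine, and Bhmt did not pass, with log2 changes of -0.38 and -0.04.

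Of the aminotransferases, Agxt had 400, 415, 442, 215 and 294 CPM against 84.3, 98.4, 201, 136 and 128 CPM. The groups again did not overlap (log2 change -1.45, SE 0.22, adjusted p = 0.00024). Gpt had 331, 221, 299, 295 and 362 CPM against 228, 203, 187, 156 and 132 CPM, which met at 1 library of each group (log2 change -0.73, SE 0.16, adjusted p = 0.0039). Got1 (chromosome 19, 43499752 to 43524605), whose promoter is printed above, had 221, 151, 199, 221 and 224 CPM against 122, 68.4, 105, 61.1 and 57.2 CPM. It was lower in each Western liver (log2 change -1.30, SE 0.26, adjusted p = 0.0023). Oat, the ornithine aminotransferase (-1.06, adjusted p = 0.008), Aass of lysine breakdown (-0.73, adjusted p = 0.033) and Bckdha, a subunit of the branched-chain dehydrogenase (-1.56, adjusted p = 0.037), were lower as well. The calls of Aass and Bckdha were kept in 10 and 9 of 18 other analyses. The member that rose was Bckdk, from 11.4 ± 1.28 to 15.3 ± 1.61 CPM (log2 change 0.42, SE 0.13, adjusted p = 0.024), kept in 12 of 18. Of the 107 other pathway genes, 42 were lower and 6 higher, beside 11.5% and 12.9% of all genes, including 10 lower of 19 for folate and methyl groups. Aldh1l1, the cytosolic formyltetrahydrofolate dehydrogenase, changed by -1.09 (adjusted p = 0.0017), and Qdpr, which recycles the cofactor of phenylalanine hydroxylase, by -1.15 (adjusted p = 0.0015).

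**Figure D3:**
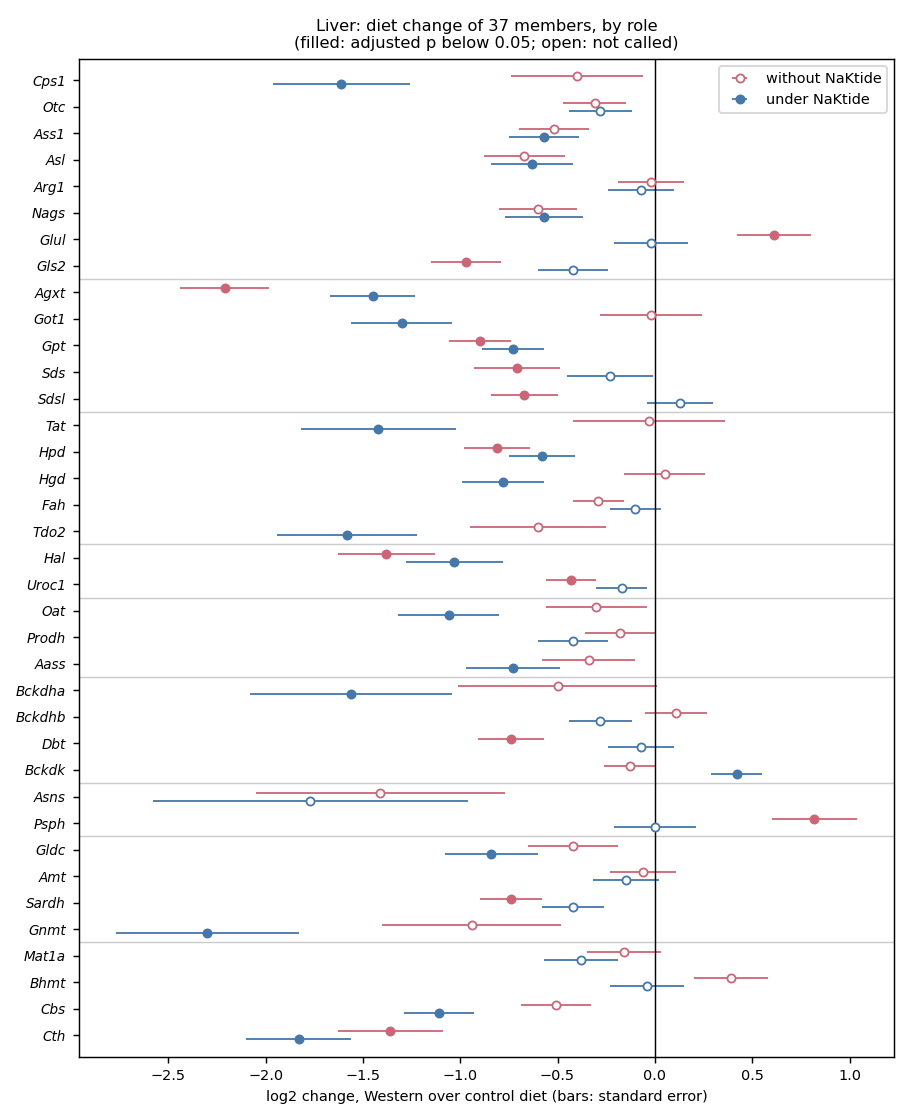
log2 change of the 37 tested members in liver, Western over control diet, without NaKtide (red) and under NaKtide (blue), ordered by role with grey lines between roles. Bars are standard errors, filled points passed adjusted p below 0.05 and open points did not. Most points lie left of 0, and Agxt without NaKtide and Gnmt under NaKtide reach furthest, the latter at -2.30.

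The mitochondrial share moved with this contrast. Counts on mitochondrial genes were 5.982% ± 0.591 (SD, n = 5) of the total in control livers with NaKtide and 10.724% ± 3.722 in Western livers with NaKtide, where they ran from 7.06% to 16.947%. Without NaKtide they were 5.983% ± 1.047 and 7.752% ± 2.299, with Western liver 1 at 11.575%. Control livers with NaKtide reached at most 6.871%, so the share did not overlap between the groups under NaKtide. Share and group can therefore not be fully told apart in this contrast. With this share as a covariate, 2 of the 20 members called under NaKtide passed, Agxt (log2 change -1.64, adjusted p = 0.0047) and Cth (-1.48, adjusted p = 0.028), and over all genes the calls went from 3172 to 217. The sum of 4 adipocyte genes ran from 118 to 217 CPM in these Western livers and from 2.68 to 76.9 CPM in their controls, with Adipoq at most 0.607 CPM in either group. The 5 cholangiocyte genes summed to 64.8 to 275 CPM against 10.2 to 26 CPM, and 6 stellate and fibroblast genes to 154 to 375 CPM against 85.2 to 158 CPM. The part of these genes in the members' changes was not tested.

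**Figure D4:**
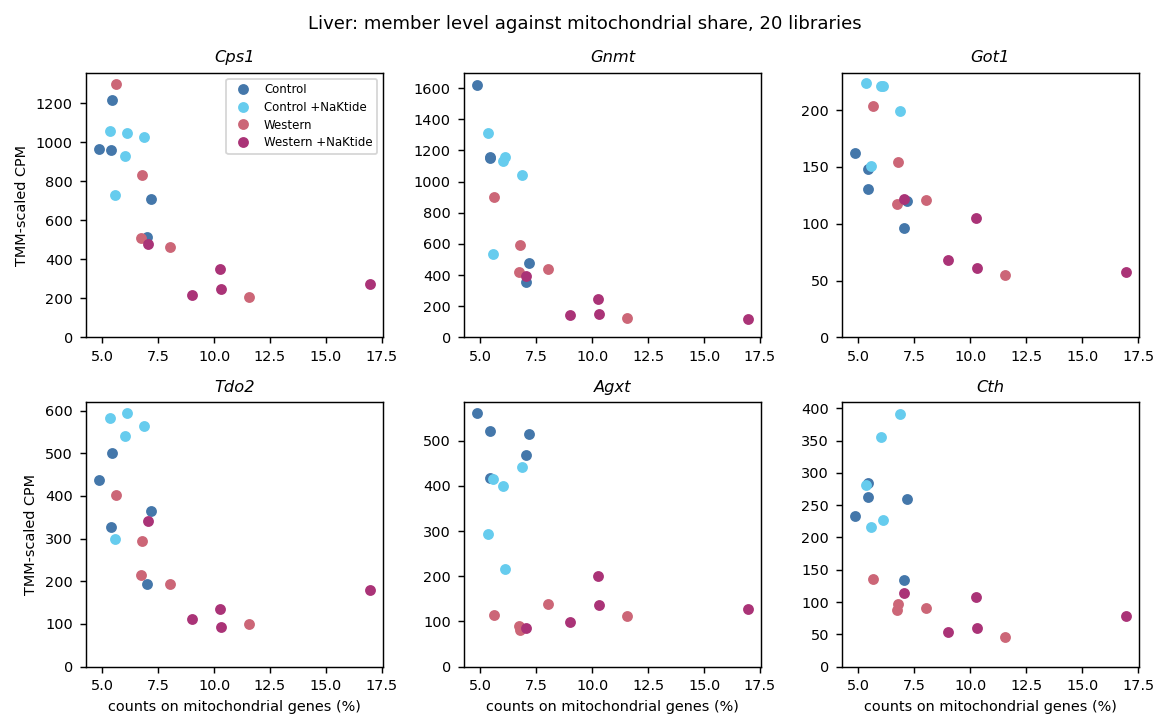
TMM-scaled CPM of 6 members (vertical axes) against the percent of counts on mitochondrial genes (horizontal axes) in 20 livers, 1 point a library, coloured by group. Western livers with NaKtide reach 16.947%. The 5 livers with the largest shares hold the lowest levels of Cps1 and Gnmt. They are Western liver 1 without NaKtide (11.575%) and Western livers 2 to 5 with NaKtide, while Western liver 1 with NaKtide has 7.06%. Share and group thus go together only in part. Agxt is low in all Western livers, those with small shares included.

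Within the Western diet, livers with NaKtide were compared with livers without NaKtide. The peptide and the doxycycline that switches it on cannot be told apart in this contrast. No member passed at an adjusted p below 0.05 by edgeR, while 4.82% of all genes did, in a split of 293 higher and 333 lower. An unadjusted p below 0.05 was reached by 14 members and by 24.5% of all genes. DESeq2 called 4 members and 8.22% of all genes, and voom with quality weights 13 members and 30.1% of all genes. The 2 members with the smallest p are Cbs and Hgd. Cbs had 267, 368, 393, 485 and 450 CPM in Western livers and 342, 244, 289, 247 and 204 CPM with NaKtide, which overlap (log2 change -0.57, SE 0.18, adjusted p = 0.069). Hgd had 320, 625, 700, 663 and 626 CPM in Western livers and 557, 380, 343, 302 and 252 CPM with NaKtide (log2 change -0.68, SE 0.21, adjusted p = 0.07). Here the libraries numbered 1 of both groups lie within the range of the opposite group.

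Those 2 libraries were also the ones whose whole profile was nearest to the opposite group. Without them, an analysis chosen after the data were seen, 9 members were lower and 1 higher with NaKtide. Over all genes, calls went from 626 to 3561. Because these libraries were left out for resembling the opposite group, the removal widens the difference by construction, and this count is a description that supports no change. With the mitochondrial share as a covariate no member passed. Of the 107 other pathway genes in all libraries, 3 rose and 5 fell, among them Kynu of tryptophan breakdown (log2 change -0.97, adjusted p = 0.0055), Hao1, which makes glyoxylate (-1.14, adjusted p = 0.0073), Gpt2, the mitochondrial alanine aminotransferase (0.67, adjusted p = 0.018), and Ppm1k (0.80, adjusted p = 0.021). This contrast shares its Western livers with the diet contrast without NaKtide.

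On the control diet no member passed the threshold between livers with and without NaKtide by edgeR, while 1.37% of all genes did. An unadjusted p below 0.05 was reached by 7 members and by 18.8% of all genes. DESeq2 called 1 member and 3.23% of all genes, and voom with quality weights no member and 1.85% of all genes. Bckdk had 15.9, 13.6, 15.4, 16.6 and 18.3 CPM without and 13.6, 10.3, 10.9, 11.1 and 10.9 CPM with NaKtide. The groups only touched, and the log2 change was -0.49 (SE 0.13, adjusted p = 0.061). Sdsl had 23.7, 16.9, 19.5, 19.9 and 21.8 CPM without and 15.6, 15.8, 18.6, 9.53 and 12.6 CPM with NaKtide, which overlap (log2 change -0.50, SE 0.17, adjusted p = 0.14). Of the other pathway genes 1 passed, Ivd (log2 change -0.52, adjusted p = 0.036).

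Whether the diet effect differed with NaKtide was tested as the interaction. It was called for 1 of 37 members, Got1, and for 4.66% of all genes. An unadjusted p below 0.05 was reached by 13 members and by 28% of all genes. DESeq2 called 4 members and 11.5% of all genes, and voom with quality weights 16 members and 25% of all genes. Got1 had 131, 148, 96.5, 120 and 162 CPM in control and 54.6, 117, 154, 204 and 121 CPM in Western livers without NaKtide, which overlap widely. With NaKtide it was lower in every Western liver, as given above. The interaction was -1.28 on the log2 scale (SE 0.37, adjusted p = 0.049), and its call was kept in 7 of 28 other analyses. Without the Western livers numbered 1, 15 members passed, 11 below 0 and 4 above, the latter Agxt, Sdsl, Dbt and Bckdk, while calls over all genes went from 605 to 3659. This removal too widens the difference by construction. With the mitochondrial share as a covariate, or without control livers 2 and 4, none did. By RLE scaling the split of calls over all genes was 353 above and 331 below 0, against 242 and 363 by TMM. For NaKtide on the Western diet it was 333 higher and 287 lower, against 293 and 333.

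In subcutaneous fat, 24 members passed the filter on low counts, and the liver-type members mostly did not. On the Western diet without NaKtide 4 were lower and none higher, against 3.32% and 2.19% of 15226 genes. The median log2 change was -0.23 for the members and -0.02 for all genes. Glul (chromosome 1, 153899944 to 153909723) had 1000, 1320, 1400, 622 and 972 CPM in control and 501, 380, 400, 424 and 466 CPM in Western libraries. It was lower in all Western libraries (log2 change -1.29, SE 0.22, adjusted p = 0.0096) and was called in all 17 other analyses. Prodh, the proline dehydrogenase (chromosome 16, 18060357 to 18090203), had 88.3, 59.7, 127, 35.1 and 89.2 CPM against 17.6, 29.3, 27.5, 32.8 and 24.7 CPM, again without overlap (log2 change -1.60, SE 0.35, adjusted p = 0.018). Dbt had 79.2, 58.4, 87.5, 45.4 and 85.1 CPM against 40.6, 39.6, 43.5, 41 and 54.3 CPM, which overlap at 1 library of each group (log2 change -0.70, SE 0.18, adjusted p = 0.033). Cbs had 23.8, 8.27, 19.3, 9.42 and 25.6 CPM against 6.16, 5.19, 5.54, 7.07 and 5.74 CPM, a low level in both groups without overlap (log2 change -1.54, SE 0.41, adjusted p = 0.034).

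Skeletal muscle genes moved with this contrast. Their sum over 15 genes ran from 8260 to 62400 CPM in control and from 83.4 to 267 CPM in Western libraries, and the mitochondrial share from 4.119% to 11.134% and from 2.395% to 3.375%. The 4 adipocyte genes summed to 5620 to 9270 CPM and 7580 to 8760 CPM. The part of muscle in the members' changes was not tested. Dbt was called in 9 and Cbs in 8 of the 17 other analyses. Subcutaneous control library 4 and Western libraries 1 and 2 with NaKtide go against their labels by their profile or by mesothelial genes. Without them 5 members were lower and 1 higher, with no share of all genes given for this setting. Control library 4 was left out for resembling a Western library with NaKtide, so its removal can widen the difference by construction. This count is a description that supports no change. Other subcutaneous libraries nearest to another group were kept. Of 93 other pathway genes tested, 9 were lower and 1 higher, beside the 3.32% and 2.19% of all genes. The lower ones included Tst, a mitochondrial sulfurtransferase (log2 change -2.28, adjusted p = 0.011), Acadsb (-0.59, adjusted p = 0.015) and Bcat2, the mitochondrial branched-chain aminotransferase (-0.87, adjusted p = 0.019). The cystine transporter gene Slc7a11 was the one that rose (1.73, adjusted p = 0.024).

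In subcutaneous fat of the Western diet, no member differed between libraries with and without NaKtide by edgeR, and 0% of all genes tested passed. An unadjusted p below 0.05 was reached by 3 members and by 12.2% of all genes. DESeq2 and voom with quality weights called no member, and 1.27% and 4.2% of all genes. Psph had 23.2, 31.8, 34.9, 49.2 and 19.6 CPM in Western libraries and 21.1, 15.7, 25.8, 14 and 16.4 CPM with NaKtide, which overlap (log2 change -0.77, SE 0.28, adjusted p = 0.27). Glul was at 633, 630, 550, 798 and 586 CPM with NaKtide, above all Western libraries given above (log2 change 0.56, SE 0.22, adjusted p = 0.31).

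Visceral fat had 36 members past the filter and the widest spread between libraries, with a biological coefficient of variation of 0.676 against 0.251 in liver. On the Western diet without NaKtide, 14 members were lower and 2 higher, against 12.3% and 10.7% of 17235 genes. The median log2 change was -1.87 for the members and -0.19 for all genes. Several of the lower members were at low levels. Gls2 averaged 0.306 ± 0.197 against 4.99 ± 4.12 CPM, and Amt of the glycine cleavage system 1.53 ± 0.496 against 31.4 ± 29.8 CPM. The calls of Glul, Prodh, Cbs, Asns and Asl were kept in each of 18 other analyses, that of Cth in 17 and that of Ass1 in 11. Glul had 1110, 962, 1680, 1350 and 1310 CPM in control and 713, 540, 777, 602 and 599 CPM in Western libraries, without overlap (log2 change -0.99, SE 0.19, adjusted p = 0.0021). Cbs had 22.6, 15.6, 19.1, 16.9 and 10.3 CPM against 3.64, 8.76, 2.91, 3.28 and 4.35 CPM, also without overlap (log2 change -1.88, SE 0.36, adjusted p = 0.0021). Prodh had 106, 95.9, 55, 60.4 and 28.7 CPM against 19, 26, 11.2, 20.7 and 18.4 CPM, with control library 5 just above the Western range (log2 change -1.86, SE 0.42, adjusted p = 0.0069). Sdsl rose, from 13.5, 16, 6.24, 6.78 and 5.27 CPM to 21.1, 52.4, 22.3, 27.1 and 27.2 CPM, and each Western library was above each control (log2 change 1.65, SE 0.35, adjusted p = 0.0046).

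Without the visceral libraries above 1000 CPM of epididymis and testis genes, 12 members were lower and none higher in this contrast. Over all genes 1075 were lower and 1383 higher. This setting left only control libraries 1 and 2 against the 5 Western libraries, so its p-values rest on few controls. The set of lower members changed. Hal, Uroc1, Gldc, Amt, Bhmt and Cth were no longer called, with Amt at -1.15 (adjusted p = 0.21) and Cth at -0.46 (adjusted p = 0.35). Arg1, Hpd, Bckdhb and Dbt were newly called lower. Glul then changed by -0.67 (adjusted p = 0.023), Cbs by -2.05 (adjusted p = 0.0082), Prodh by -2.39 (adjusted p = 0.0029) and Asns by -1.57 (adjusted p = 0.00028), and Sdsl was not called. Without control library 4 and Western libraries 1 and 5 with NaKtide, 12 were lower and 1 higher, with no share of all genes given for this setting. Control library 4 was left out for resembling a Western library with NaKtide, so this count is a description that supports no change. Hepatocyte genes summed to 25.8 to 2430 CPM in control and 372 to 991 CPM in Western libraries, and 4 adipocyte genes to 179 to 10000 and 7380 to 8860 CPM. Macrophage and Kupffer cell genes (7) summed to 32.7 to 118 CPM in control and 364 to 942 CPM in Western libraries. The 6 stellate and fibroblast genes summed to 128 to 979 and 1770 to 3630 CPM, and the 3 mesothelial genes to 10.3 to 58 and 61 to 171 CPM. None of these 3 lists overlapped between the groups. The part of these cells in the members' changes was not tested.

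Visceral fat of the Western diet had 8 members higher and 1 lower with NaKtide than without, against 5.54% and 7.12% of all genes. The median log2 change was 1.40 for the members and 0.01 for all genes. This contrast shares its 5 Western libraries with the diet contrast above. Prodh had 42, 42.5, 134, 203 and 69 CPM with NaKtide, all above the Western libraries given above (log2 change 2.36, SE 0.43, adjusted p = 0.0024). Cbs had 21.6, 21.5, 9.75, 9 and 18.7 CPM with NaKtide, likewise above all Western libraries (log2 change 1.81, SE 0.36, adjusted p = 0.0038). Asns, whose promoter is printed above (chromosome 6, 7675169 to 7693254), had 43.3, 34.5, 29, 28.7 and 30.8 CPM without and 124, 92.3, 106, 88.2 and 37.2 CPM with NaKtide. Only library 5 with NaKtide fell into the Western range (log2 change 1.43, SE 0.30, adjusted p = 0.0056). Glul had 1130, 1270, 1050, 1050 and 1440 CPM with NaKtide, above all Western libraries (log2 change 0.88, SE 0.19, adjusted p = 0.0063). Sdsl fell from 30.0 ± 12.8 to 10.8 ± 4.66 CPM (log2 change -1.47, adjusted p = 0.012).

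Glul, Prodh, Asns and Cbs were called in all 18 other analyses of this contrast. Without the libraries rich in epididymis and testis genes 11 members were higher and 2 lower, and Bckdha (1.03), Bckdhb (1.29), Phgdh (1.17) and Psat1 (0.48) joined those that rose. Calls over all genes also grew under this setting, from 2182 to 3538, with 1601 higher and 1937 lower. Without 3 visceral libraries chosen after the data were seen, 5 members were higher and none lower, namely Glul, Prodh, Bckdk, Asns and Cbs. Over all genes 441 were higher and 723 lower. Among the 3 libraries left out, a control library and Western library 5 with NaKtide were each other's nearest by profile. The remaining one, Western library 1 with NaKtide, was nearest to a library of its own group. Other visceral libraries that were nearest to another group were kept. Mesothelial genes summed to 2.98 CPM in Western library 1 with NaKtide, the lowest of the visceral libraries. Other marker lists moved with this contrast. The 7 macrophage and Kupffer cell genes summed to 364 to 942 CPM without and 63.6 to 323 CPM with NaKtide. The 5 periportal genes, which include Hal and Sds, summed to 140 to 392 and 416 to 4270 CPM, and the 8 pericentral genes, which include Glul and Oat, to 874 to 1440 and 2480 to 5190 CPM. Both lists name zones of the liver, and Glul is itself a member called in this contrast. The hepatocyte genes overlapped, at 372 to 991 CPM without and 604 to 2680 CPM with NaKtide. So did the stellate and fibroblast genes, at 1770 to 3630 and 397 to 2770 CPM. Epididymis and testis genes reached 574 CPM without and 28800 CPM with NaKtide. The mitochondrial share ran from 1.732% to 2.626% without and from 2.636% to 6.239% with NaKtide. The part of these in the members' changes was not tested.

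Of 104 other pathway genes, 23 rose and 5 fell in this contrast, beside 5.54% and 7.12% of all genes. The further steps of branched-chain breakdown held 11 of the risers among 17 tested, with none lower, among them Mccc2 of leucine breakdown (log2 change 1.31, adjusted p = 0.014), Ppm1k (1.46, adjusted p = 0.014) and Hibadh of valine breakdown (1.03, adjusted p = 0.02). Tst rose by 3.14 (adjusted p = 0.00042) and Klf15, a transcription factor gene known to regulate amino acid breakdown, by 1.26 (adjusted p = 0.0083). Slc38a1 (-2.37, adjusted p = 0.0041) and Slc7a11 (-1.80, adjusted p = 0.015) were among those that fell.

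**Figure D5:**
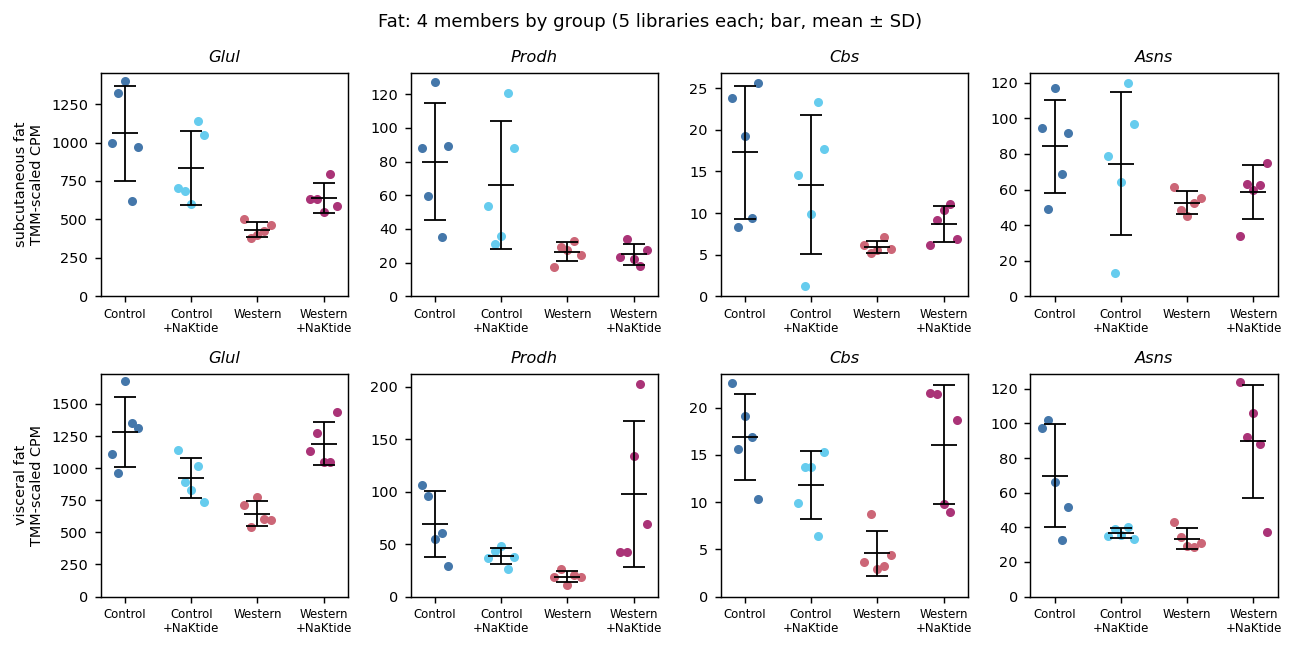
TMM-scaled CPM of Glul, Prodh, Cbs and Asns in subcutaneous (upper row) and visceral fat (lower row), 1 point a library in 4 groups, with the mean and 1 SD of 5 libraries. In both fats Glul, Prodh and Cbs are lower on the Western than on the control diet without NaKtide. In visceral fat Glul lies between 1050 and 1440 CPM in Western libraries with NaKtide and between 540 and 777 CPM without.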

How the data were processed

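The data are 60 RNA-seq libraries of mouse liver and fat, read in pairs of 50 bp from a stranded mRNA kit. The authors deposited raw counts per gene, which are whole numbers, and FPKM, both named per the file headers. Per the submitters' processing notes, Trimmomatic 0.38, HISAT2 2.1.0, DESeq2 1.20.0 and GRCm38 were used. The sources used here give no counting program or strand setting. GENCODE M21 supplied gene coordinates. The tests used edgeR 4.0.16 under R 4.3.3, on the counts as deposited, with 1 model of 4 groups per tissue, a low-count filter by group (filterByExpr), TMM factors, the robust quasi-likelihood test and Benjamini-Hochberg adjustment over all genes tested, called at 0.05. Other analyses used RLE scaling, no filter, DESeq2 1.42.0, voom with quality weights (limma 3.58.1), the replicate number as a block, 2 groups alone, and each library left out. Of 9 contrasts, 5 are in liver and 4 in fat. The test was checked on simulated data. Depth of 3.178 to 9.784 M counts limits genes of a few counts.

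The members, the pathway lists and the cell markers were chosen with earlier results of these data known. Values in every library are given for the called members with the smallest p, at most 8 per liver and 4 per fat contrast, or 2 where none was called. Of the other pathway genes, only called ones among the 3 with the smallest p in each direction of a list were eligible for naming.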

Additional observations from a re-analysis of the deposited data

Results flagged for a closer look

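Among 65 groups of 5 libraries examined for the members whose values are given in every library, 6 held a library far from the other 4. Chance alone gives about 1 in 20. Hgd was at 320 CPM in Western liver 1 against 625 to 700 CPM in the other 4. Tdo2 was at 300 CPM in control liver 2 with NaKtide against 540 to 594 CPM, and Bckdk at 13.6 CPM in control liver 1 with NaKtide against 10.3 to 11.1 CPM. In visceral fat, Western library 2 was high for both Cbs, at 8.76 CPM against 2.91 to 4.35 CPM, and Sdsl, at 52.4 CPM against 21.1 to 27.2 CPM. Dbt was at 54.3 CPM in subcutaneous Western library 5 against 39.6 to 43.5 CPM.

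The effect of diet on Got1 in liver differed with NaKtide by -1.28 on the log2 scale (edgeR interaction, adjusted p = 0.049). That call was kept in 7 of 28 other analyses, and the interaction was called for 4.66% of all genes.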

How the results depend on the processing

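No value changed sign in a call under any analysis run. Of 642 values for single members, 582 kept their side of the threshold, 47 lost it and 13 gained it. Counts of calls over members and over all genes stayed within 1.5 times the reported count in 179 of 342 cases; the cause of the others was not tested. Leaving out 1 library at a time gave, for members and for all genes, 9 to 15 and 766 to 1122 (liver diet), 0 to 8 and 207 to 2255 (liver NaKtide on Western diet), 0 to 1 and 52 to 381 (liver NaKtide on control diet), 13 to 20 and 1684 to 4668 (liver diet under NaKtide) and 0 to 12 and 179 to 2717 (liver interaction). In fat it gave 1 to 6 and 81 to 1389 (subcutaneous diet), 0 to 0 and 0 to 0 (subcutaneous NaKtide), 10 to 24 and 1465 to 5058 (visceral diet) and 5 to 9 and 959 to 3754 (visceral NaKtide). Counts below name members first, then all genes.

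For the liver diet contrast voom gave 20 and 1747, the 2 groups alone 712 genes and leaving out control livers 2 and 4 gave 642 genes. For NaKtide on Western liver DESeq2 gave 4 and 1068, voom 13 and 3910, the 2 groups alone 321 genes, leaving out both libraries 1 gave 10 and 3561, and the mitochondrial covariate 119 genes. On control liver no filter gave 101 genes, DESeq2 1 and 420, the 2 groups alone 110 genes, leaving out control livers 2 and 4 gave 78 genes and the covariate 1 and 270. Under NaKtide voom gave 5613 genes, leaving out both libraries 1 gave 4778 genes and the covariate 2 and 217. For the interaction no filter gave 0 and 362, DESeq2 4 and 1499, voom 16 and 3243, leaving out control livers 2 and 4 gave 0 and 354, leaving out both libraries 1 gave 15 and 3659, and the covariate 0 and 138. For the subcutaneous diet contrast no filter gave 2 and 294, DESeq2 1727 genes, voom 9 and 3717 and the 2 groups alone 9 and 2100. For subcutaneous NaKtide DESeq2 gave 194 genes, voom 639, the 2 groups alone 158 and leaving out 3 libraries 1. For the visceral diet contrast no filter gave 1851 genes, DESeq2 6364, voom 28 and 6419, the 2 groups alone 2105 genes and leaving out the tract libraries 2458. For visceral NaKtide no filter gave 5 and 1001, DESeq2 17 and 4602, voom 15 and 7372, leaving out the tract libraries 3538 genes and leaving out 3 libraries 5 and 1164.

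At most 2 of 5 same-numbered pairs had correlated deviations above 0.1 in any contrast. This check compares groups of the same tissue, with 5 pairs each. It cannot tell whether libraries of different tissues share a mouse, nor exclude a shared batch. With the replicate block the calls over all genes were 359 for NaKtide on Western liver, 60 on control liver, 152 for the interaction, where members called went to 0, and 2544 for the visceral diet contrast. The alternatives that leave out several libraries together or use the covariate were chosen after the data were seen. Phgdh and Psat1 were too low in liver to be tested.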
